A study of Mus musculus with 10 samples.

Results

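The genes described here encode the accessory subunits of the m6A writer: Mettl14, Wtap, 1110037F02Rik, Zc3h13, Rbm15, Rbm15b and Cbll1. They were chosen as the subunits of the methyltransferase complex other than its catalytic subunit Mettl3, by gene symbol, and make up 7 of the 24411 genes listed in each table. The symbol 1110037F02Rik is listed by RefSeq as a synonym of Virma, and the gene is called Virma below. Splice forms of Wtap were followed through the transcript length estimated in each library.

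N6-methyladenosine (m6A) is a methyl mark placed on adenosines of messenger RNA in the nucleus, most often in a short motif around GGACT and often near stop codons. The mark is written by a large complex. METTL3 carries the catalytic site and METTL14 pairs with it to hold the RNA, while WTAP, VIRMA, ZC3H13, CBLL1 and the RBM15 proteins form a regulatory part that places the core in nuclear speckles and directs it to its targets. In embryos m6A marks both maternal and newly made transcripts, and reader proteins that bind it act on their splicing, export, translation and decay.

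The data were 10 RNA sequencing libraries of mouse morulae, each from 10 pooled embryos. Oocytes of superovulated females had been fertilized in vitro, and zygotes were injected 3 to 6 h after insemination with an antisense oligonucleotide (ASO), which can direct the cutting of a matching RNA. The ASO targeted Mettl3 in the Mettl3-ASO group (5 libraries) and had no target in the ASO-Control group (5 libraries), and all embryos grew in KSOM medium to the morula stage at 72 h. Polyadenylated RNA was the input, and the SMART-Seq v4 PLUS kit was used throughout. Replicates 3 to 5 of both groups carry the batch label 2, and replicates 1 and 2 carry none, with the strain ICR named for these 4 only; the tissue is also worded differently in the labels of the 2 sets, as embryo without the batch label and as morula stage embryo with it. Whether each library came from its own fertilization is not stated, so the p-values below reflect only how these libraries vary, and that variation may be technical.

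Total expected counts were 9905830 to 13530284 in the 4 libraries without a batch label and 21412857 to 32327283 in the 6 of batch 2. Mettl3, the targeted gene, had 0 to 0.04 FPKM (fragments scaled to transcript length and library depth) in the Mettl3-ASO libraries, against 6.58 to 12.68 FPKM in the ASO-Control libraries. Of 12 marker genes of morulae, 11 had a mean of at least 1 FPKM in both groups, and Sox2 was just below it. Their levels differed between the groups, with 2 of the 11 tested called higher and 6 lower in edgeR's test. That test called 49.4% of all genes tested, 25.4% as higher and 24.0% as lower. Nanog, a gene of the pluripotent lineage, averaged 214 ± 135 FPKM in Mettl3-ASO and 93.9 ± 42.1 FPKM in ASO-Control (SD, n = 5 each), and Krt18, a keratin of the outer cell layer, 39.0 ± 41.1 FPKM in Mettl3-ASO and 254.6 ± 187.7 FPKM in ASO-Control. Gata3, Krt8, Cdx2, Klf5 and Pou5f1 were also lower and Dppa3 higher in Mettl3-ASO. The part that these markers have in the members' differences was not tested. Markers of cumulus cells, which surround the oocyte, summed to 2.77 to 6.27 FPKM in Mettl3-ASO libraries and 1.63 to 3.84 FPKM in controls. Most of this was Amhr2, with means of 4.68 FPKM in Mettl3-ASO and 2.58 FPKM in ASO-Control. Amh, Cyp19a1, Inhba and Has2 were at 0 in all libraries. Sperm markers summed to 0.25 to 2.82 FPKM in Mettl3-ASO libraries and 0.40 to 2.13 FPKM in controls. Of the blood markers, Hba-a1 averaged 39.5 FPKM in Mettl3-ASO and 44.8 FPKM in ASO-Control, while Hbb-bs was at 0. The part of all these markers in the results was not tested. Each level is a share of its own library, and in pooled embryos fewer cells and less RNA per cell cannot be told apart.

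The splice forms of Wtap encode proteins of very different length and its estimated transcript length differed between the groups, so the sequences at the point where they part are shown. The gene lies at chr17:12966796-12994169 on the minus strand of GRCm38 (mm10), and the tables list 3 RefSeq transcripts for it. NM_001113533 has 8 exons and encodes the full protein of 396 amino acids. NM_001113532 and NM_175394 have 6 exons and encode 151 amino acids, 38.1% of the full length, because exon 6 runs on past the splice site into the intron and meets a stop codon. The first 452 coding bases are the same in all 3 transcripts. In the lines below, taken from the GENCODE M21 transcripts linked to these RefSeq entries and written 5′ to 3′ on the gene's strand, lower case marks the last 30 bases of exon 6 (chr17:12975296-12975325). Capitals mark what follows: the first 30 bases of exon 7 (chr17:12969530-12969559) in the full-length form, and the bases up to and including the stop codon (chr17:12975292-12975295) in the truncated forms.
NM_001113533: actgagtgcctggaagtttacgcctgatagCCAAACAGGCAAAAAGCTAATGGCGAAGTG
NM_001113532: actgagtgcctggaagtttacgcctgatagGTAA
NM_175394: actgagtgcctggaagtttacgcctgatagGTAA

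**Figure D1:**
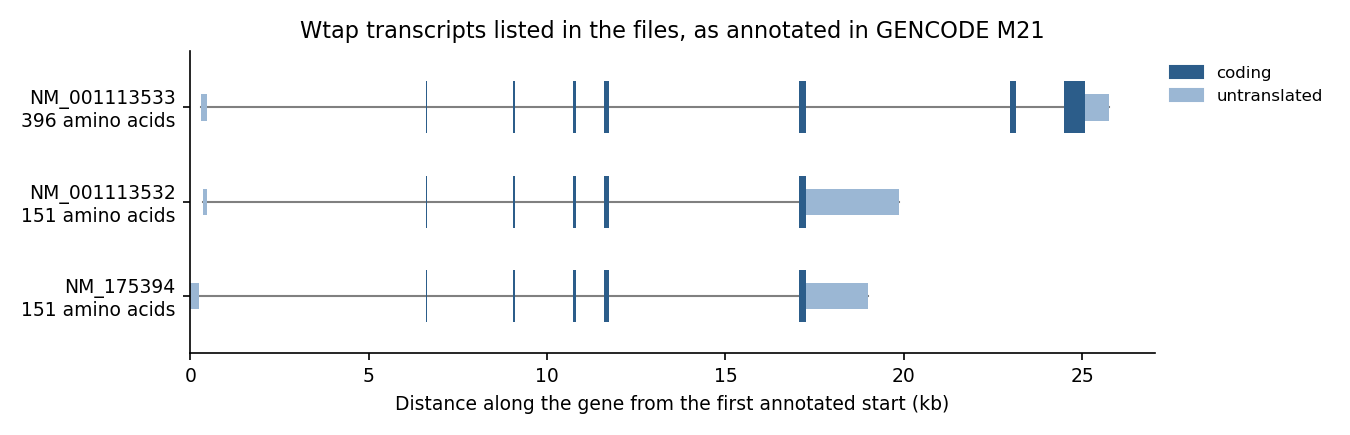
Map of the 3 Wtap transcripts listed in the tables, with exons as boxes and coding parts taller. It is drawn to scale against the distance in kilobases from the most upstream start among the 3 transcripts. The full-length transcript (8 exons) is spliced from exon 6 to exon 7, and both truncated transcripts (6 exons) end within an extended exon 6.

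Expression was tested on expected counts with edgeR's quasi-likelihood test, with terms for batch label and group, and p-values were adjusted by Benjamini-Hochberg over the 9522 genes with a mean of at least 1 FPKM. A gene was called at an adjusted p under 0.05, and fold changes are Mettl3-ASO over ASO-Control. All 7 members passed the filter on low values. Zc3h13 did so through its level in ASO-Control and Rbm15 through its level in Mettl3-ASO, and both were called without the filter too. Of the 7 members, 4 rose in Mettl3-ASO (Wtap, Virma, Rbm15 and Cbll1), 1 fell (Zc3h13) and 2 were not called (Mettl14 and Rbm15b). Among all genes tested, 49.4% were called, 25.4% as higher and 24.0% as lower, so a call by itself was common.

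Mettl14 is the partner of Mettl3 in the core that touches RNA, and has no catalytic activity of its own. Its level was 5.15, 4.54, 5.10, 3.39 and 4.84 FPKM in Mettl3-ASO replicates 1 to 5, against 5.80, 8.46, 4.74, 4.97 and 5.97 FPKM in ASO-Control replicates 1 to 5. The groups overlapped, and the ASO-Control replicate 2 library stood highest. The means were 4.60 ± 0.721 FPKM in Mettl3-ASO and 5.99 ± 1.48 FPKM in ASO-Control (SD, n = 5 each), and the log2 fold change of −0.41 ± 0.20 (SE) did not pass the test (edgeR adjusted p = 0.104). It was called only with limma after quantile scaling of the libraries (log2 difference −0.45, adjusted p = 0.04).

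Wtap, the adaptor that brings the METTL3 and METTL14 core to nuclear speckles, was by far the most abundant member. It had 1187, 1010, 848, 1264 and 1156 FPKM in Mettl3-ASO replicates 1 to 5, against 384, 351, 271, 360 and 274 FPKM in ASO-Control. Every Mettl3-ASO library lay above every control library. The means were 1093 ± 165 FPKM in Mettl3-ASO and 328 ± 52.0 FPKM in ASO-Control (SD, n = 5 each). In counts Wtap was 2.68-fold higher (log2 1.42 ± 0.13, edgeR adjusted p = 6.1e-06), and with the estimated effective length of each library taken into account 3.25-fold higher (log2 1.70 ± 0.12, adjusted p = 1.2e-06). Ranked from the top among the 9522 genes by mean FPKM, Wtap was at place 181 in Mettl3-ASO and 549 in ASO-Control.

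Virma, the large scaffold protein named after fly virilizer, is known to steer methylation to sites near stop codons and in 3′ untranslated regions. Its level was 5.85, 5.91, 3.36, 4.83 and 5.43 FPKM in Mettl3-ASO replicates 1 to 5, against 4.58, 3.91, 2.27, 2.71 and 3.16 FPKM in ASO-Control. Replicates 1 and 2 were the highest of each group. The groups overlapped over all libraries, at 3.36 to 5.91 FPKM in Mettl3-ASO and 2.27 to 4.58 FPKM in ASO-Control. Virma rose by 0.59 ± 0.17 on the log2 scale (1.50-fold, edgeR adjusted p = 0.0134), with means of 5.08 ± 1.05 FPKM in Mettl3-ASO and 3.33 ± 0.927 FPKM in ASO-Control (SD, n = 5 each). The call was lost with limma after quantile scaling (log2 difference 0.33, adjusted p = 0.0889) and in the libraries without a batch label.

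Zc3h13, a zinc finger protein that bridges WTAP to the RNA-binding RBM15 subunit and holds the complex in the nucleus, went the other way. It had 1.32, 0.53, 0.70, 0.98 and 0.53 FPKM in Mettl3-ASO replicates 1 to 5, against 5.84, 4.96, 4.24, 4.23 and 4.11 FPKM in ASO-Control. The ranges were far apart, and Mettl3-ASO replicate 1 was the nearest to the controls. These values rest on 31 to 152 counts per Mettl3-ASO library and 348 to 804 counts per ASO-Control library. Zc3h13 was 5.97-fold lower in Mettl3-ASO (log2 −2.58 ± 0.23, edgeR adjusted p = 4.0e-06), a change larger in size than that of 95.9% of the genes tested.

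Rbm15 and Rbm15b are related RNA-binding proteins that recruit the complex to chosen transcripts, among them the long noncoding RNA Xist. Rbm15 had 3.73, 3.19, 3.30, 4.29 and 3.69 FPKM in Mettl3-ASO replicates 1 to 5, against 1.39, 0.86, 0.57, 0.87 and 0.71 FPKM in ASO-Control. The groups did not overlap. Rbm15 was 4.13-fold higher (log2 2.05 ± 0.25, edgeR adjusted p = 3.5e-05), on 31 to 85 counts per ASO-Control library.

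Rbm15b, by contrast, overlapped between the groups, with 2.08, 1.61, 1.15, 1.58 and 1.67 FPKM in Mettl3-ASO against 1.65, 1.05, 0.87, 1.31 and 1.19 FPKM in ASO-Control. Its log2 fold change was 0.36 ± 0.26 (edgeR adjusted p = 0.266). The ratio of Rbm15 to Rbm15b, on the FPKM scale, was 1.79 to 2.87 in the Mettl3-ASO libraries and 0.597 to 0.842 in the ASO-Control libraries. Which of the pair is higher in ASO-Control depends on the transcript lengths, 3270 and 3016 bases in the tables against 4343 and 6511 bases in GENCODE. With the GENCODE lengths and the same counts, a comparison chosen after seeing the data, the ratio was 2.98 to 4.78 in the Mettl3-ASO libraries and 0.994 to 1.40 in the controls. With either lengths the ratio was higher in every Mettl3-ASO library than in any control. Rbm15b has a single exon, of which 1.15% lies over exons of Dcaf1 on the other strand and 0.215% over exons of Manf on the same strand.

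Cbll1 encodes HAKAI, a RING finger protein first described as a ubiquitin ligase of E-cadherin and later found in the writer complex. It had 20.91, 53.81, 42.53, 43.74 and 54.75 FPKM in Mettl3-ASO replicates 1 to 5, against 12.41, 17.14, 15.78, 17.89 and 20.45 FPKM in ASO-Control. Mettl3-ASO replicate 1 was barely above the highest control library, while the other Mettl3-ASO libraries were well clear of it. Cbll1 was 2.52-fold higher (log2 1.34 ± 0.24, edgeR adjusted p = 6.7e-04), and leaving out Mettl3-ASO replicate 1 gave a log2 fold change of 1.53. Of the Cbll1 exon bases, 17.6% lie over the predicted gene Gm29542 on the other strand, which has no row in the tables. The sources used here do not state whether counting was strand-specific.

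**Figure D2:**
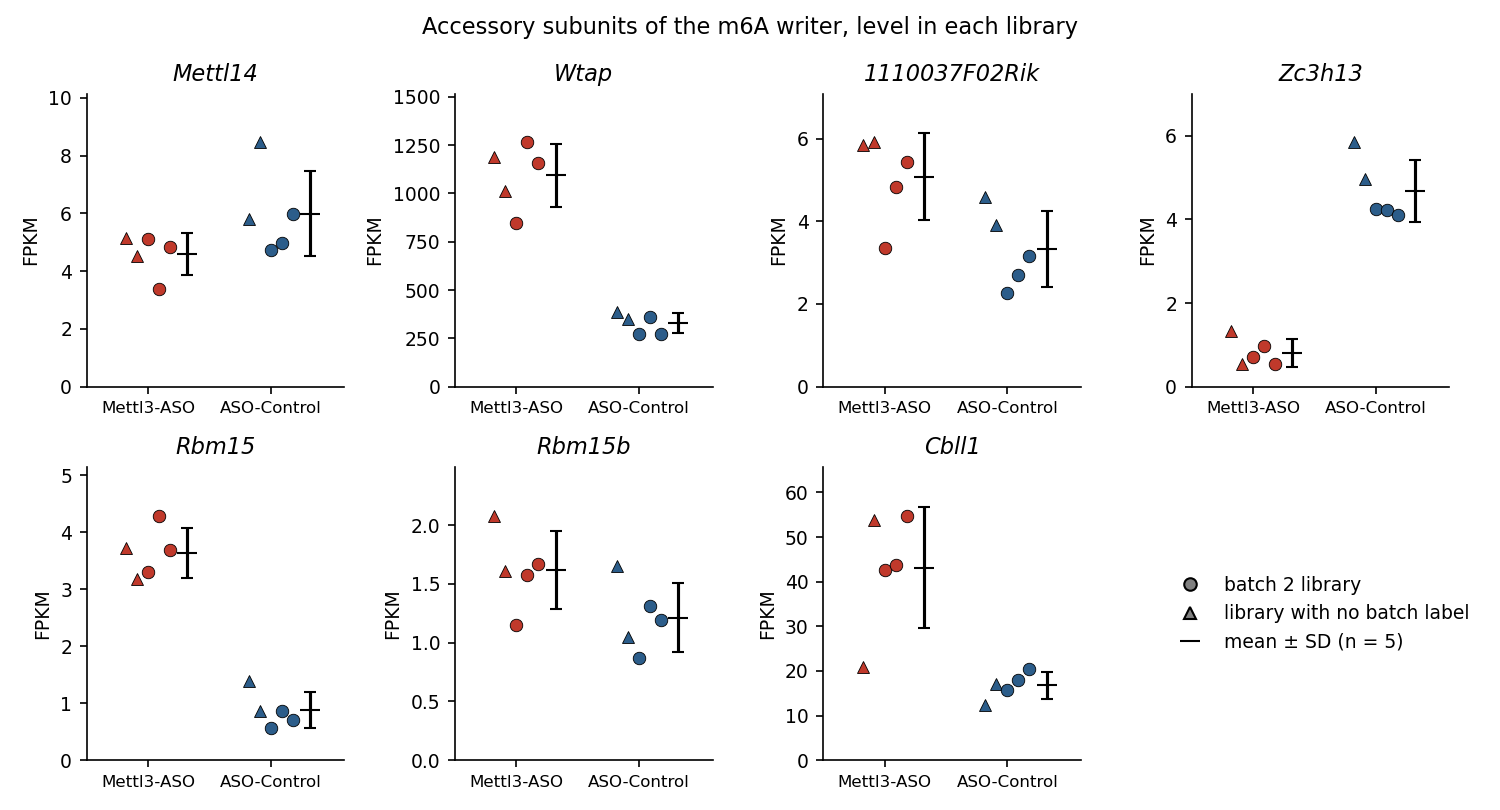
FPKM of each of the 7 members by library, each on its own axis from 0, with Mettl3-ASO to the left of ASO-Control, triangles for libraries without a batch label and circles for batch 2, and bars for the mean ± SD (n = 5); the panel 1110037F02Rik is Virma. Wtap, Rbm15 and Cbll1 lie higher and Zc3h13 lower in all 5 Mettl3-ASO libraries than in any control, while Mettl14, Virma and Rbm15b overlap.

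The FPKM ranges of the groups did not overlap for 4 members (Wtap, Rbm15 and Cbll1 higher, Zc3h13 lower). Among all genes tested this held for 25.6%, of which 15.0% of genes were higher and 10.6% lower. The median log2 fold change was 0.59 over the 7 members and 0.01 over all genes tested. By size of change, Rbm15 exceeded 93.4% of the tested genes, Wtap 87.0%, Cbll1 85.5%, Virma 55.8%, Mettl14 41.7% and Rbm15b 37.5%.

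Within batch 2 alone (3 libraries against 3) the same 5 members were called, where 39.0% of all genes were (20.2% higher and 18.9% lower). Within the libraries without a batch label (2 against 2), where 6.26% of all genes were called (3.79% higher and 2.47% lower), only Wtap (log2 1.24, edgeR adjusted p = 0.021) and Zc3h13 (log2 −2.62, adjusted p = 0.0262) were. In these shallower libraries the log2 fold changes of Rbm15 (1.58, adjusted p = 0.0874), Cbll1 (1.34, adjusted p = 0.147) and Virma (0.43, adjusted p = 0.354) did not pass. Each of the 7 members had the same direction under both labels. A test of the difference between the labels, the interaction of group and batch label in edgeR, called 0 of 9522 genes (159 at an unadjusted p under 0.05, and 0 with limma). With only 2 libraries against 2 under 1 of the labels, it can miss differences, so 0 calls do not show that the labels agree. For Rbm15 the log2 fold change without the label minus that in batch 2 was −0.76 ± 0.47, and −1.09 to −0.45 with each library left out in turn. Leaving out any 1 of the 10 libraries left the same 5 members called. In these fits 2162 to 2461 genes were called higher and 2022 to 2339 lower. Over all libraries it was 2418 and 2286, or 49.4% of the genes tested. Blocking on the replicate number also left the same 5 members called, where 55.1% of all genes were called.

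**Figure D3:**
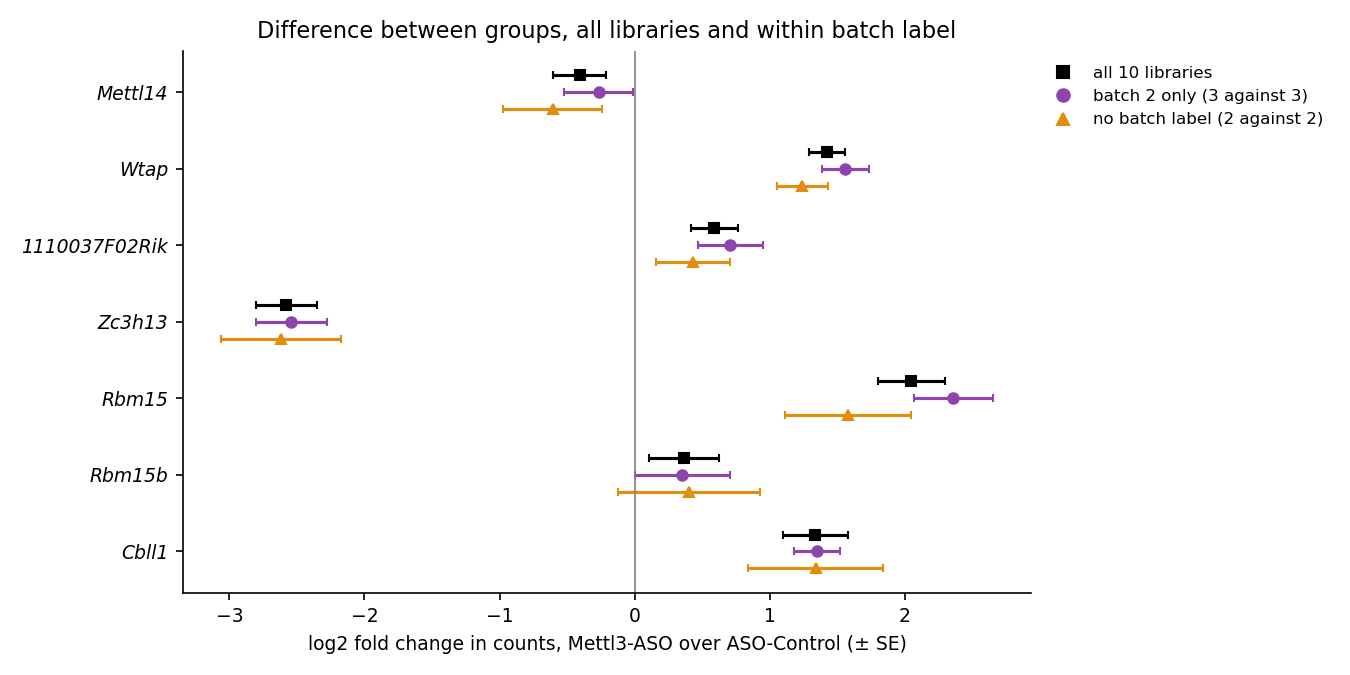
Log2 fold change in counts (Mettl3-ASO over ASO-Control, with its standard error) of the 7 members from all 10 libraries, from batch 2 and from the libraries without a batch label. Wtap, Virma, Rbm15 and Cbll1 lie right of 0 and Zc3h13 left of it in all 3 fits, with Zc3h13 at −2.58 and Rbm15 at 2.05 over all libraries.

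The balance between the members differed as well. On the FPKM scale, which divides by length, Wtap made up 93.6 to 96.8% of the summed level of all 7 in the Mettl3-ASO libraries and 88.5 to 92.4% in the controls. The remaining 6 members summed to 39.0 to 70.9 FPKM in the Mettl3-ASO libraries and 28.5 to 36.4 FPKM in the controls. Wtap was the highest and Cbll1 the next in all 10 libraries. This also held with GENCODE lengths for the members with 1 listed transcript, the levels of Wtap and Cbll1 being left as they were. By the lengths of the tables, Zc3h13 was the lowest member in all 5 Mettl3-ASO libraries and Rbm15 in all 5 ASO-Control libraries. By the GENCODE lengths, Rbm15b was the lowest in 3 Mettl3-ASO and 4 ASO-Control libraries, so the order of the lowest members is not settled.

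Among the 6 members other than Wtap, Cbll1 held a mean share of 71.6% in Mettl3-ASO (53.6 to 77.3%) and 51.0% in ASO-Control (39.2 to 57.5%). Mettl14 held 8.28% in Mettl3-ASO (5.76 to 13.2%) and 18.1% in ASO-Control (15.5 to 23.3%). Zc3h13 held 1.56% in Mettl3-ASO (0.747 to 3.38%) and 14.3% in ASO-Control (11.5 to 18.4%). These are shares of a sum in which Cbll1 itself is large, so the shares do not give the members' own differences.

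**Figure D4:**
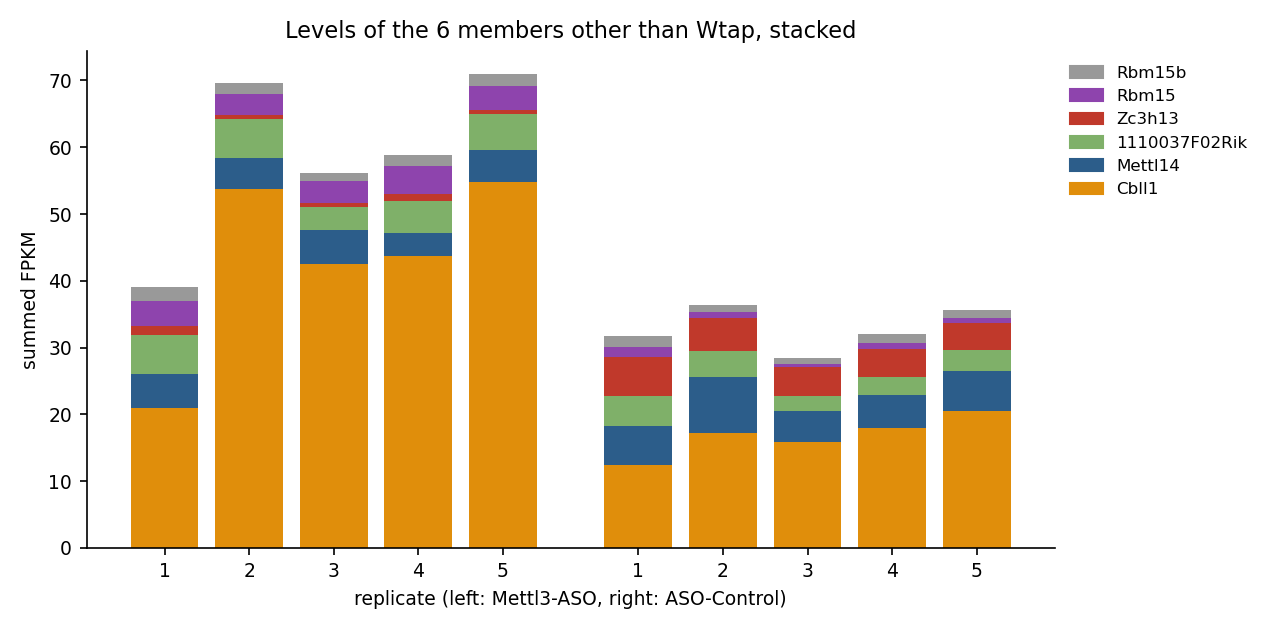
Stacked FPKM of the 6 members other than Wtap in each library, Mettl3-ASO left and ASO-Control right. Cbll1 fills most of each Mettl3-ASO bar, and Zc3h13 is a thin layer there (mean 1.56% of the bar) and a wide one in ASO-Control (14.3%).

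The estimated transcript length of Wtap was shorter in Mettl3-ASO. The length column is a mean over the annotated transcripts of a gene, weighted by their estimated abundance in that library. For Wtap it was 2078, 2116, 2097, 2101 and 2105 bases in Mettl3-ASO replicates 1 to 5, against 2626, 2407, 2474, 2563 and 2395 bases in ASO-Control. The Mettl3-ASO libraries lay close together near the 2051 bases of the full-length transcript in GENCODE, and the control libraries were spread around the 2442 bases of NM_175394. The means were 2099 ± 13.9 bases in Mettl3-ASO and 2493 ± 99.8 bases in ASO-Control (SD, n = 5 each), a log2 difference of −0.25 ± 0.03 (limma adjusted p = 0.0027 over the 2637 genes whose length varied).

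An exact two-sided permutation test that relabelled libraries within the batch label gave p = 0.0167, the smallest that its 120 relabellings allow. The log2 difference was −0.24 within batch 2 (limma adjusted p = 0.0312) and −0.26 in the libraries without a label (adjusted p = 0.343). Of the 2637 genes, 8.12% were called for length, 2.16% as longer and 5.95% as shorter, and the Wtap difference was larger than that of 98.4% of them. With the replicate number as a block, 3.64% of genes were called and Wtap remained so (limma adjusted p = 0.0322). The length of Cbll1, the other member with more than 1 listed transcript, averaged 3996 ± 6.72 bases in Mettl3-ASO and 3998 ± 7.55 bases in ASO-Control (SD, n = 5 each; limma adjusted p = 0.807). The other 5 members have 1 listed transcript each, so their length could not vary.

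With 3 transcripts the length does not fix their shares, but it bounds them if the GENCODE lengths of 2051, 2442 and 3187 bases are taken. Under that condition the 2 truncated transcripts together made up at least 2.38 to 5.72% and at most 6.92 to 16.6% of Wtap transcripts in the Mettl3-ASO libraries. In the ASO-Control libraries they made up at least 30.3 to 50.6% and at most 88.1 to 100%. With these lengths the bounds of the groups do not meet. How the bounds depend on the 2442 and 3187 bases of the truncated transcripts was not tested. The full-length transcript came to at least 749 FPKM in every Mettl3-ASO library and at most 241 FPKM in any ASO-Control library, whose ratio is 3.11. The bounds of the truncated transcripts overlapped, at 28.3 to 168 FPKM in the Mettl3-ASO libraries and 83.1 to 384 FPKM in the controls, so their direction is not fixed by these data. The lengths the authors used may differ from GENCODE's: of 6488 genes with 1 listed transcript, 15.4% had the same length in both and 68.7% were within 5%. For Cbll1 they do differ, as its estimated length of 3984 to 4006 bases exceeds the 3945 bases of its longest linked GENCODE transcript. The shares are computed from the length and add no test to it.

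**Figure D5:**
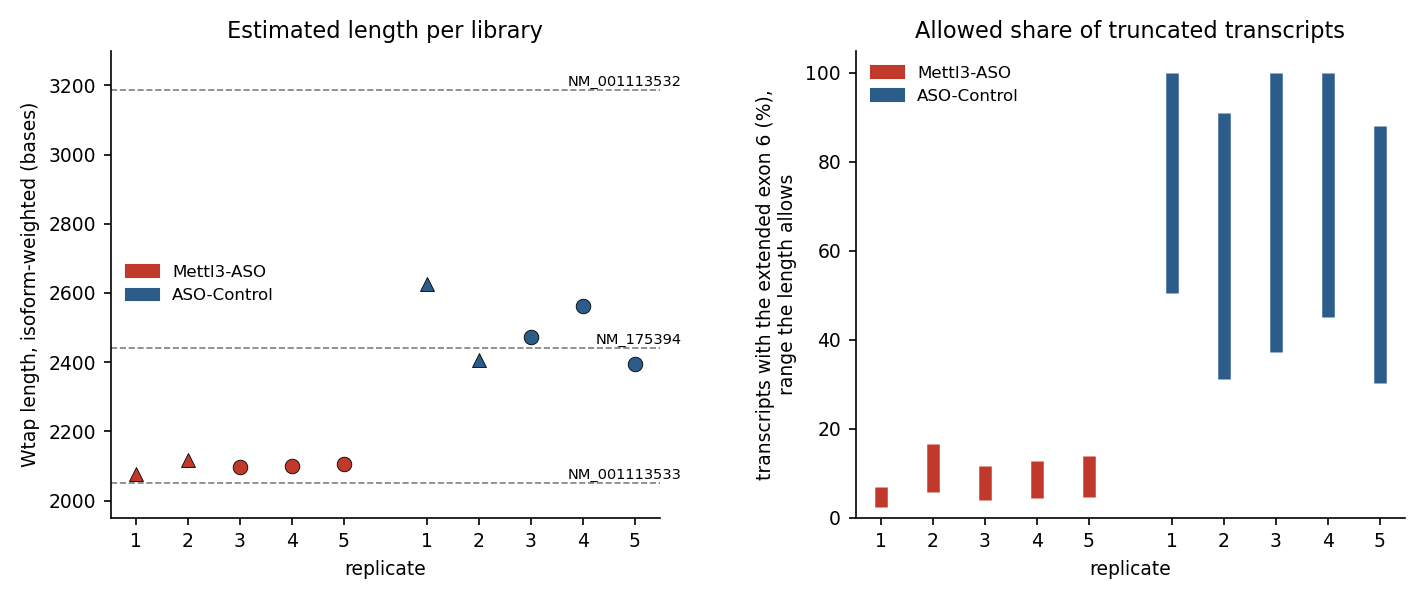
Left, the estimated Wtap transcript length in bases in each library, with dashed lines at the GENCODE lengths of the 3 transcripts. Right, the lowest to highest percentage of truncated transcripts that each length allows; the Mettl3-ASO bars end at 16.6% or below, and the ASO-Control bars begin at 30.3% or above.

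The letters GGACT, a common form of the m6A motif, were counted on the sense strand of the GENCODE transcripts of the members. They occur 4 times in NM_001113533, and 6 times in each truncated Wtap transcript, at 1.88 to 2.46 per kilobase over the 3. The 3 Cbll1 transcripts hold 1.27 to 2.14 per kilobase. The single Rbm15 transcript holds 2 (0.461 per kilobase), that of Zc3h13 1.14 per kilobase, that of Virma 1.07, that of Mettl14 1.09 and that of Rbm15b 0.922. Over 13453 transcripts the median was 1.03 per kilobase (quartiles 0.576 and 1.56), and 88.3% held the motif at least once. Of the members that rose, Wtap and Cbll1 lie above that median, Virma barely above it and Rbm15 below it. Zc3h13, which fell, lies slightly above it. Of those not called, Mettl14 lies slightly above it and Rbm15b below. A relation between the motif and the direction of change was not tested. A match is a description of the letters and not a methylated site.

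Other genes of the m6A pathway were taken from lists of readers, erasers, other writers and partners of the WTAP complex. Of 27 tested genes out of 30 listed, 7 rose and 6 fell, or 48.1%, near the 49.4% of all genes, and their median log2 fold change was 0.07. Among 15 readers, 4 rose and 4 fell. The cytoplasmic reader Ythdf2, which sends marked RNA to decay, averaged 84.3 ± 10.3 FPKM in Mettl3-ASO and 35.9 ± 3.48 FPKM in ASO-Control (SD, n = 5 each). Rbmx, a nuclear RNA-binding protein, averaged 43.0 ± 9.22 FPKM in Mettl3-ASO and 10.7 ± 2.33 FPKM in ASO-Control. Ythdf1 (log2 fold change 0.65 ± 0.15) and the nuclear reader Ythdc1 (0.40 ± 0.13) also rose. The readers that fell were Igf2bp2 (−0.72 ± 0.16), Igf2bp3 (−1.16 ± 0.20), Hnrnpc (−0.41 ± 0.13) and Elavl1 (−0.50 ± 0.12).

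The eraser Alkbh5, a demethylase, rose by 0.93 ± 0.17 on the log2 scale, to 6.15 ± 2.04 FPKM in Mettl3-ASO against 3.11 ± 0.747 FPKM in ASO-Control (edgeR adjusted p = 8.2e-04), and Fto, the other, was below the filter. Of 5 other methyltransferase genes, Trmt112, the cofactor of Mettl5, rose by 0.36 ± 0.12 and Mettl5, which methylates ribosomal RNA, fell by 0.32 ± 0.12. Mettl16, Zcchc4 and Mettl4 were not called, and Pcif1 was below the filter. Of 6 tested partners, the cap-binding subunit Ncbp1 rose by 0.73 ± 0.15 and the cleavage factor Nudt21 fell by 0.30 ± 0.10. In the libraries without a batch label alone, 6.26% of all genes were called. There the calls of Ythdf1, Ythdc1, Igf2bp2, Igf2bp3, Hnrnpc, Elavl1, Alkbh5, Trmt112, Mettl5, Ncbp1 and Nudt21 were lost, with the same sign. In batch 2 alone, where 39.0% of all genes were called, those of Ythdc1, Trmt112, Mettl5 and Nudt21 were lost. Some of the smaller differences lay close to the threshold of edgeR's test and crossed it when 1 library was left out, with log2 fold changes of the same sign and similar size. The call of Hnrnpc was lost without ASO-Control replicate 5 (log2 −0.37, adjusted p = 0.0515). That of Trmt112 was lost without Mettl3-ASO replicate 2 or 3 or ASO-Control replicate 5 (log2 0.29 to 0.32, adjusted p of 0.0562 to 0.0650). Ythdc1 was not called without Mettl3-ASO replicate 4 or 5 or ASO-Control replicate 1 or 3 (log2 0.35 to 0.37, adjusted p of 0.0583 to 0.0654), nor Nudt21 without Mettl3-ASO replicate 1, 4 or 5 or ASO-Control replicate 1, 2, 3 or 4 (log2 −0.30 to −0.26, adjusted p of 0.0543 to 0.0656). Mettl5 was called only with all libraries or without Mettl3-ASO replicate 2 or 4 among these fits. Calls were also gained: Ythdf3 as lower without Mettl3-ASO replicate 5 (log2 −0.43, adjusted p = 0.0244), Ythdc2 as lower without Mettl3-ASO replicate 4 (log2 −0.60, adjusted p = 0.0271) and Cpsf6 as higher without Mettl3-ASO replicate 1 (log2 0.37, adjusted p = 0.0348). Other processing also moved calls. Without the filter on low values, or without the batch label term, Ythdc1, Trmt112, Mettl5 and Nudt21 were not called. Hnrnpc was not called without that term. Mettl5 was also lost with limma on log2(FPKM + 1) (adjusted p = 0.0639). Cpsf6 was gained with that limma fit (adjusted p = 0.0479), and Ythdc2 with DESeq2's Wald test (adjusted p = 0.0423).

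Across the 10 libraries, some genes followed single members closely in log2 CPM (counts scaled to library depth). The highest Pearson r with Wtap were those of Cand1 and Papolb (0.987 each), and with Rbm15 those of Trim75 (0.985) and Mcl1 (0.984). Papolb averaged 3.02 FPKM in Mettl3-ASO and 0.114 FPKM in ASO-Control, and Trim75 2.71 FPKM in Mettl3-ASO and 0.008 FPKM in ASO-Control. Both passed the filter only through Mettl3-ASO, and their r largely restates the difference between the groups. Ctnna1 (0.997) and Dnajc2 (0.995) came nearest to Zc3h13, and N4bp2l2 and Ccdc174 (0.987 each) to Cbll1. For the members that differed less, the nearest were Rnf168 (0.973) and Tiam1 (0.962) for Virma, Wdyhv1 (0.912) and Prr15l (0.908) for Mettl14, and Atp2a2 (0.926) and Dzip3 (0.909) for Rbm15b. Dzip3, at 1.35 FPKM in Mettl3-ASO and 0.79 FPKM in ASO-Control, also passed the filter through Mettl3-ASO. The 10 points fall into the treatment groups and share their libraries, so a high r describes the difference between the groups as much as likeness within them.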

How the data were processed

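STAR 2.7.10, RSEM 1.3.3 and the build mm10 are named in the submitters' processing notes, without roles or options; the sources used here give neither the annotation release nor a strand setting. The authors deposited, per gene and library, expected counts (reads matching several genes are shared out by estimation), FPKM (scaled to length and depth), and length and effective length in bases as isoform-weighted means. Expected counts of the 7 members were whole in all 10 libraries (tolerance 0.005). Groups and replicate numbers came from the titles, and 0 value columns were left without a sample.

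Expected counts were rounded and tested with edgeR 4.0.16 (TMM, quasi-likelihood, batch label and group) in R 4.3.3, over the 9522 genes with a mean of at least 1 FPKM. Length was tested with limma 3.58.1 on log2 bases. A standard error of a log2 fold change is its size divided by the square root of F. DESeq2 1.42.0, other scalings, filters and pseudocounts were alternatives. Scripts were tested on simulated data. In sets of 50 changed genes, edgeR's test recovered 24% at 1.5-fold, 76% at 2-fold, 92% at 4-fold and 54% at 0.5-fold. Of the unchanged genes, 8 were called. Differences as small as those of Mettl14 and Rbm15b can thus be missed. Between libraries of 1 group and batch label, chi-square per degree of freedom was at least 21.2, so none was a second deposit of the same reads and each was counted as 1 sample; whether they share an embryo pool is not shown by this. Same-numbered libraries of the groups deviated together from their group and batch means (r of 0.190 to 0.315; replicates 1 and 2, as the only libraries of their label, share 1 value), so the replicate number was also used as a block; the labels state no pairing. Named genes are the members, Mettl3, the pathway lists and, per member, the 2 other genes with the highest Pearson r. Predicted (Gm, Rik) names were passed over in that choice. Gm29542, Dcaf1 and Manf are named for overlapping a member. Sequences and lengths came from GENCODE M21 on GRCm38, linked through RefSeq identifiers. Members and lists were chosen with earlier results of these data known. Reads carry no molecular identifiers, and no interval of counting error was used.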

Additional observations from a re-analysis of the deposited data

Results flagged for a closer look

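Of 22 sets of 5 libraries (in each group, the levels of the 7 members, the lengths of Wtap and Cbll1, the share of Wtap in the summed level and the ratio of Rbm15 to Rbm15b), 1 held a library far from the other 4. The estimated length of Cbll1 in Mettl3-ASO replicate 4 was 3984.26 bases, the lowest of that group, and its gap to the next library was 0.720 of the group's range. The mean of the group was 3996 ± 6.72 bases (SD, n = 5), and chance flags about 1 in 20 such groups.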

How the results depend on the processing

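The log2 fold changes of Wtap, Zc3h13 and Rbm15b kept their direction and their side of the threshold under every alternative that gave a value, as did Virma, Rbm15, Cbll1, Mettl14 and the Wtap length but for the following log2 differences. Mettl14 was −0.45 after quantile scaling (limma adjusted p = 0.04, called) and Virma 0.33 (adjusted p = 0.0889). In the libraries without a batch label alone, Virma was 0.43, Rbm15 1.58, Cbll1 1.34 and the Wtap length −0.26, none of them called, and 361 genes were called higher and 235 lower, against 2418 and 2286 over all libraries. The Cbll1 fold change without the label minus that in batch 2, 0.02 in edgeR, turned to −0.011 with median-ratio scaling and −0.18 with limma, and its length difference to 0.00043 with effective length.

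With each library left out in turn, the log2 fold changes ranged over −0.49 to −0.28 for Mettl14, 1.35 to 1.49 for Wtap, 0.49 to 0.67 for Virma, −2.73 to −2.44 for Zc3h13, 1.92 to 2.23 for Rbm15, 0.28 to 0.45 for Rbm15b and 1.05 to 1.53 for Cbll1, and the Wtap length over −0.26 to −0.23. That difference between labels ranged over −0.76 to 0.31 for Zc3h13, −0.24 to 0.35 for Rbm15b and −1.05 to 0.57 for Cbll1, and the Cbll1 length over −0.0017 to 3.0e-05. The cause of these reversals was not tested.

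With the replicate number as a block (edgeR), Wtap had an adjusted p of 3.1e-06, Virma 0.0053, Zc3h13 4.6e-06, Rbm15 5.9e-05, Cbll1 5.0e-05, Mettl14 0.0777 and Rbm15b 0.232; no call of a member changed, and of the other pathway genes only Cpsf6 became called (adjusted p = 0.0351). Genes called for length, 57 longer and 157 shorter, came to 26 and 70 under the block, 29 and 51 with effective length, 13 and 53 in batch 2, 3 and 2 without the label, and 31 to 56 and 90 to 153 with a library left out. With a mean of at least 5 FPKM, Virma, Zc3h13, Rbm15 and Rbm15b were not tested. Setting the shortest Wtap transcript to the lowest length in the tables, an alternative chosen after seeing the data, put truncated transcripts at 0 to 10.4% in the Mettl3-ASO libraries and 28.6 to 100% in the controls. Depth limits Rbm15, Rbm15b and Zc3h13 most, with 31 counts in the lowest library of Rbm15 and of Zc3h13 and 35 in that of Rbm15b.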
